A study of Rattus norvegicus with 12 samples.

Results

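RNA co-precipitated with Cpeb4 was compared between cardiomyocytes treated with phenylephrine (PE) and mock-treated cells. The 6 libraries of this comparison, out of 12 in the series, were chosen by their labels as precipitates made with the Cpeb4 antibody, 3 from mock cells and 3 from PE cells. The cells were ventricular cardiomyocytes of neonatal Wistar rats (age label 2 days), separated from other heart cells on a Percoll gradient. No transgene, knockout or sorted population was involved. PE was given for 24 h, and the length of the mock treatment is not given in the sources used here. Each precipitation started from 10000000 myocytes, and the labels do not say how many animals were pooled. The other 6 libraries, 3 mock and 3 PE, were made from total RNA (input) of cells of the same kind. All were 3′ end libraries made from 200 ng of RNA, so that a count stands for a transcript end rather than for a stretch of its length. A precipitate made with a control antibody was not analysed here.

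Cpeb4 belongs to the cytoplasmic polyadenylation element binding proteins. These proteins bind U-rich elements near the 3′ end of messenger RNAs and regulate the length of the poly(A) tail and the translation of the transcript. PE is an agonist of alpha-adrenergic receptors, and neonatal rat cardiomyocytes exposed to it enlarge, add sarcomeres and re-express genes of the fetal heart. The amount of a transcript in a precipitate depends on its amount in the cell as well as on its recovery with the protein. The change of each gene in the precipitate (IP) was therefore set beside its change in input.

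Genes are given by Ensembl rat identifiers, because neither the counts nor the reference table used here pairs these with symbols. None of the 32883 identifiers could be given a name, and no promoter or miRNA sequence could be assigned to one. The cardiomyocyte label could not be checked against marker genes, nor could markers of fibroblasts, endothelial or other heart cells be read, for the same reason. Fewer cells of a type and less RNA per cell cannot be told apart in such bulk samples. At most 2 identifiers are printed for each direction, and other genes are described by their levels.

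The 6 precipitates held between 2224005 and 30216559 counts and the 6 inputs between 1423334 and 29538785. IP mock replicate 2 stood apart. It had 0 counts for 27.2% of the 10491 genes tested, against 2.72% to 8.83% in the other 5 precipitates. Among the 5985 genes that averaged 10 CPM or more in the precipitates (CPM, the usual depth-normalised read count, here with library totals scaled by TMM factors), it lacked 6.70%, and the others lacked at most 0.368%. Spearman's rho across these genes was 0.533 to 0.702 between this library and the other precipitates, and 0.737 to 0.889 among the others. Input mock replicate 2 and input PE replicate 1 also lacked many of these genes, 4.63% and 4.90%, against 0.267% to 2.06% in the other inputs. Most gene counts, the genes named and the likeness of IP and input are given below with and without certain libraries, where they move. Left out were mock replicate 2, or mock replicate 2 and PE replicate 1.

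PE raised 1 gene in the Cpeb4 precipitates, ENSRNOG00000000875, and lowered none (edgeR quasi-likelihood test, Benjamini-Hochberg adjusted p under 0.05, 10491 genes). The call rate was 0.00953% for higher and 0% for lower genes. At an unadjusted p under 0.05 there were 308 higher genes (2.94% of those tested) and 273 lower genes (2.60%), while 28 higher and 13 lower genes passed by DESeq2's Wald test. The median log2 fold change over all genes tested was 0.12, with a median standard error (SE) of 1.13. Scaling by library totals without composition factors shifted log2 fold changes by a median of 0.14 and turned the split at unadjusted p from 53.0% to 76.3% higher. Whether replicates were separate cultures is not stated in the labels, so that p-values below refer to variation among these libraries alone, part or all of which may be technical.

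ENSRNOG00000000875 was at 196, 66.9 and 204 CPM in mock IP replicates 1, 2 and 3, and at 1323, 1222 and 1158 CPM in PE IP replicates 1, 2 and 3. All 3 PE precipitates lay far above all 3 mock precipitates, and the lowest value was that of mock replicate 2. The group means were 156 ± 76.9 and 1234 ± 83.4 CPM (SD, n = 3 each). The log2 fold change was 2.99 (SE 0.38, 95% interval 2.19 to 3.79, edgeR adjusted p = 0.00565). In input the gene was at 208, 182.5 and 270.5 CPM in mock and at 1025, 921 and 1034 CPM in PE libraries, again without overlap. Its input log2 fold change of 2.17 (SE 0.37) did not pass (edgeR adjusted p = 0.0663), though it passed in 5 of 20 alternatives. The IP change exceeded the input change by 0.81 on the log2 scale (SE 0.50, 95% interval -0.24 to 1.86, edgeR unadjusted p = 0.120), so a difference between precipitate and input was not shown for this gene. Its share of raw counts, which needs no scaling factor, was 0.00975% to 0.0284% in mock and 0.184% to 0.209% in PE precipitates. The call was kept in 19 of 20 alternative analyses, which gave log2 fold changes from 2.56 to 3.23. Here and below, 12 of the 20 each left out 1 of the 12 libraries, so the 20 are not independent. It was lost when the 6 precipitates were fitted alone (2.95, edgeR adjusted p = 0.603). Without IP mock replicate 2 the log2 fold changes lay nearer each other, 2.63 in IP and 2.18 in input. Both passed in that fit (edgeR adjusted p = 0.00129 in IP and 0.000798 in input).

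ENSRNOG00000017786, which had the second smallest p in the precipitates, was at 829, 574 and 812 CPM in mock IP and at 2631, 1868 and 3155 CPM in PE IP. The groups did not overlap, and PE replicate 2 was the lowest of the PE precipitates. The log2 fold change of 1.79 (SE 0.31, 95% interval 1.14 to 2.43) did not pass (edgeR adjusted p = 0.116). In input the gene went from 874, 815 and 704 CPM in mock to 2900, 3844 and 5752 CPM in PE libraries. The input change was the only one to pass there (0.00953% of genes higher, 0% lower), with a log2 change of 2.38 (SE 0.31, adjusted p = 0.00906 by edgeR). This input call was lost without any 1 of the mock inputs or PE input replicate 3 (edgeR adjusted p = 0.0509 to 0.169). The IP change minus the input change was -0.60 (SE 0.42, 95% interval -1.48 to 0.29, edgeR unadjusted p = 0.175). For this gene the IP value was the smaller of both, and for ENSRNOG00000000875 it was the larger, with both intervals of the difference including 0. In the precipitates it passed in 3 of 20 alternatives, with edgeR adjusted p = 0.00883 when mock replicate 2 and PE replicate 1 were left out of IP and input.

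Of the genes with lower values in PE precipitates, ENSRNOG00000015385 and ENSRNOG00000026548 had the smallest p-values, though neither passed (edgeR adjusted p = 0.182 for both). ENSRNOG00000015385 was at 652, 796 and 621 CPM in mock IP and at 255.5, 262 and 204 CPM in PE IP, with a log2 fold change of -1.52 (SE 0.29, 95% interval -2.14 to -0.90). Each PE value was under the lowest mock value, and mock replicate 2 held the highest. Its inputs were at 423, 672 and 402 CPM in mock and 247, 240 and 221.5 CPM in PE, a log2 fold change of -1.08 (SE 0.29). ENSRNOG00000026548 was at 192, 354 and 244 CPM in mock IP and at 25.1, 75.3 and 73.1 CPM in PE IP, with a log2 fold change of -2.19 (SE 0.42, 95% interval -3.09 to -1.29). In input it was at 224, 341 and 184 CPM in mock and 77.2, 83.0 and 81.5 CPM in PE, a log2 fold change of -1.64 (SE 0.42). Both genes thus lay lower under PE in precipitate and input alike, with no overlap in either. The IP change minus the input change was -0.44 (SE 0.40) and -0.56 (SE 0.58). Both genes passed as lower in 3 of 20 alternatives and had the same sign in all 20.

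**Figure D1:**
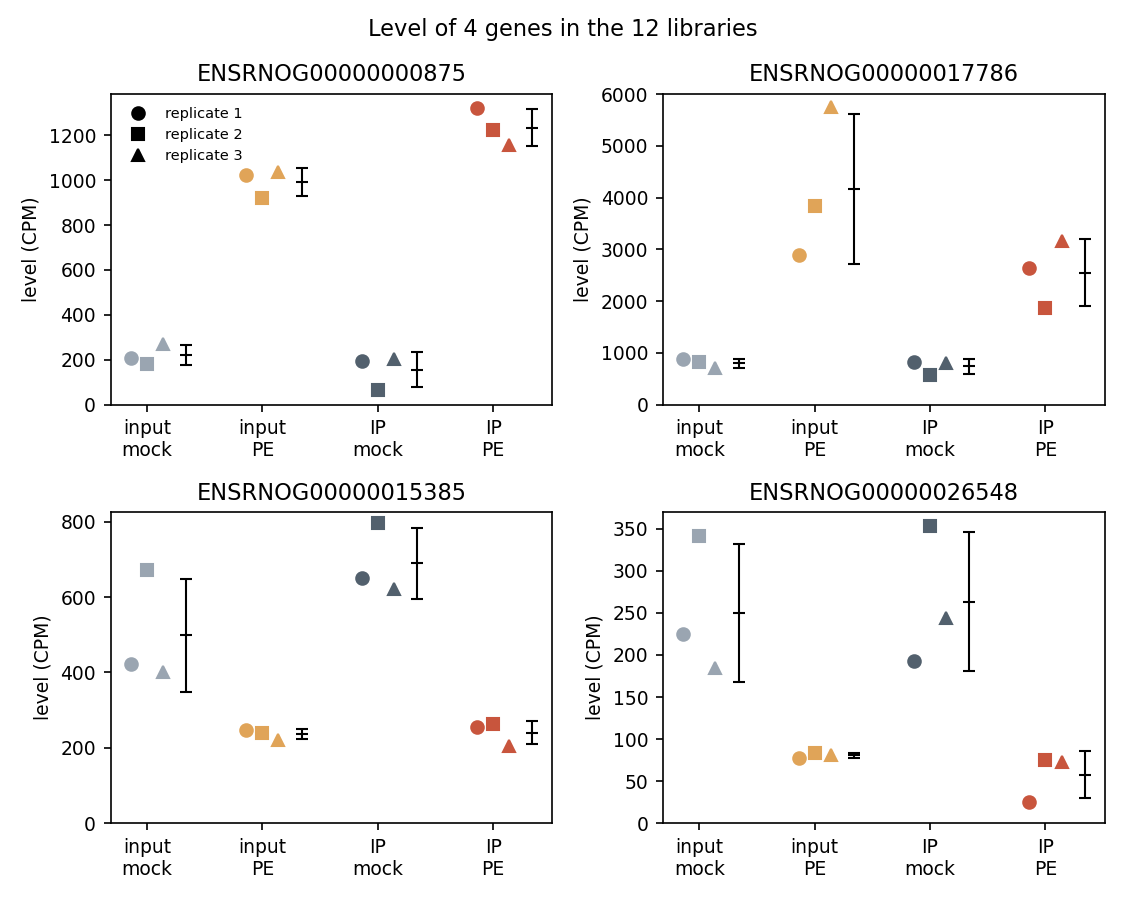
Level in CPM (linear axes from 0) of ENSRNOG00000000875, ENSRNOG00000017786, ENSRNOG00000015385 and ENSRNOG00000026548 in each of the 12 libraries, with the symbol giving the replicate number and the bar the mean ± SD of the 3 libraries of a group. In all 4 genes the PE libraries lie clear of the mock libraries, in input as in IP.

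The 9 other analyses of the precipitates, with the 12 fits that each left out 1 library counted as 1, together called 74 genes, 43 higher and 31 lower. Most were called by a single analysis, and 13 genes, 8 higher and 5 lower, were called by 3 or more. All 13 were among the 41 genes of the DESeq2 Wald test and among the 39 called once mock replicate 2 and PE replicate 1 were left out, and 11 were among the 30 called without a low-count filter. The limma voom fit with sample weights called 4 genes, all of them among the 13. The number of genes tested differed, from 10319 with the 6 precipitates alone to 15786 without a filter. Fits with other scaling factors or with a replicate block called only ENSRNOG00000000875. The 13 genes were abundant, with a median of 297 CPM in the precipitates against 13.3 CPM for all genes tested.

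The 8 higher genes of this set had log2 fold changes of 1.51 to 3.07 in the precipitates and of 1.21 to 2.38 in input. All 8 had no overlap between PE and mock in input as well, and 7 had the larger value in the precipitate. The most abundant was at 2131, 2483 and 2047 CPM in mock IP and 15830, 4670 and 6241 CPM in PE IP, so that PE replicate 1 was by far the highest. In input the same gene was at 3660, 4138 and 3021 CPM in mock and 25380, 7317 and 10340 CPM in PE, where replicate 1 again stood out. The gene with the largest log2 fold change of the set, 3.07 (SE 0.59, edgeR adjusted p = 0.182), had 138, 335 and 140 CPM in mock IP and 3483, 659 and 1023 CPM in PE IP. Its higher PE level also leaned on replicate 1, though every PE value exceeded every mock value. A less variable member had 63.9, 19.2 and 44.1 CPM in mock IP and 188, 225 and 202.5 CPM in PE IP, with a log2 ratio of PE to mock of 2.28 (SE 0.41, adjusted p = 0.125 by edgeR). In input it was at 122, 145 and 84.8 CPM in mock and 433, 427 and 637 CPM in PE libraries, a log2 fold change of 2.08 (SE 0.40), close to the IP value.

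The 5 lower genes had log2 fold changes of -2.19 to -1.52 in the precipitates and of -1.64 to -0.16 in input. Their input sign was negative in all 5, the IP change was the larger in all 5, and 3 had no overlap in input. The widest gap between precipitate and input was in a gene at 88.5, 112 and 92.6 CPM in mock IP and 31.4, 14.2 and 32.1 CPM in PE IP, where the log2 change was -1.91 (SE 0.42, adjusted p = 0.322 by edgeR). Its inputs were at 148, 177 and 65.9 CPM in mock and 133, 108 and 113 CPM in PE, a log2 fold change of -0.16 (SE 0.41), with all 3 PE inputs between the lowest and the middle mock value. This gene was lower in every PE precipitate while its input groups overlapped. The test of the difference gave an unadjusted p = 0.00769 and an adjusted p = 1 (edgeR). Another, at 464, 904 and 460 CPM in mock IP and 232, 167 and 148 CPM in PE IP, changed by -1.74 on the log2 scale (SE 0.38, adjusted p = 0.310 by edgeR) and had an input log2 fold change of -0.42 (SE 0.37). Its inputs, at 418, 476 and 285 CPM in mock and 418, 261 and 204 CPM in PE, overlapped. These 13 genes were described after their values were known, and the analyses that called them share the same libraries. All 13 were called on their IP values, so the larger changes in IP than in input follow in part from the choice.

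**Figure D2:**
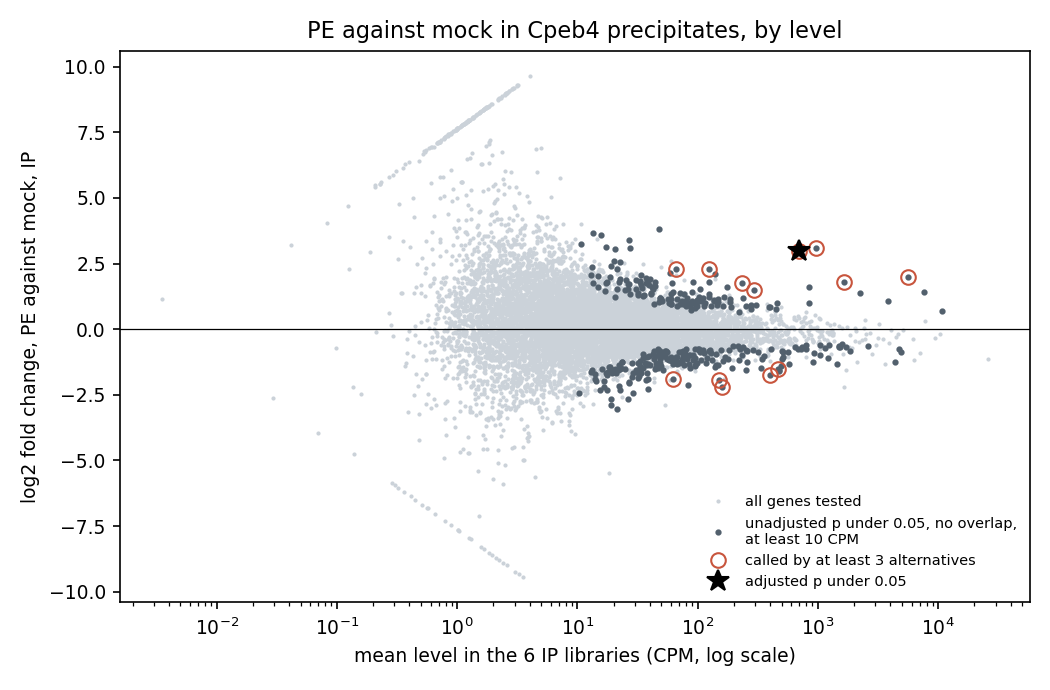
Log2 fold change of PE against mock in the Cpeb4 precipitates against the mean level in the 6 IP libraries (CPM, log axis) for the 10491 genes tested. The star is ENSRNOG00000000875, the only gene past an adjusted p of 0.05, circles mark the 13 genes called by at least 3 alternative analyses, dark points the genes with an unadjusted p under 0.05, no overlap and at least 10 CPM, and the straight rows of points at low level are genes with 0 counts in all libraries of a group.

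Separation of all PE from all mock precipitates was found for 1563 genes (14.9% of those tested), 903 higher (8.61%) and 660 lower (6.29%). In input the same criterion held for 1033 genes (9.85%), 595 higher (5.67%) and 438 lower (4.18%). A random order of 6 values without ties separates 3 from 3, in either direction, with a probability of 0.1. The input share lay near this value and the IP share of 14.9% above it, an excess that was not tested. With so many genes separated by a random order, lack of overlap alone does not mark a gene as changed by PE. IP mock replicate 2 was the lowest mock value in 656 of the 903 higher genes (72.6%), 141 of them ties and 365 of the 903 with 0 counts in it. Among the 538 with a count in this library, it was the lowest mock value in 291. It was the highest mock value in 383 of the 660 lower genes (58.0%), close to the 59.4% of all genes tested in which it was the mock value farthest in the opposite direction to PE. Without it, 1397 genes (12.3%) lay higher and 1422 (12.6%) lower in the precipitates, so the excess of higher genes was not seen. Without mock replicate 2 and PE replicate 1, 2312 higher (21.5%) and 2326 lower genes (21.7%) were separated in the precipitates, and 2260 (21.1%) and 1702 (15.9%) in input. Fewer libraries in a group are separated more easily whatever the treatment. The larger counts with libraries left out therefore do not show a larger effect of PE. Scaling by library totals gave 1143 higher and 467 lower genes in the precipitates and 938 and 198 in input.

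A narrower set had an unadjusted p under 0.05, no overlap and at least 10 CPM. It held 137 higher genes (1.31% of those tested) and 211 lower genes (2.01%). Without IP mock replicate 2 these counts were 156 and 176, and with library totals as scaling they were 180 and 79, so the excess of lower over higher genes was reversed by that scaling. With the 4 libraries of mock replicate 2 and of PE replicate 1 left out, the counts were 449 and 603. In that fit each group held 2 libraries and the biological coefficient of variation was 0.649 in place of 1.00, while leaving out 1 precipitate gave 103 to 156 higher and 149 to 294 lower genes. The part of each in the larger counts was not tested.

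The 137 higher genes had a median log2 fold change of 1.35 in the precipitates and of 0.68 in input, and 121 of them (88.3%) were also higher in input. Among the 211 lower genes the medians were -1.18 and -0.20, and 142 (67.3%) were also lower in input. Of all genes tested, 56.4% had the same sign in both, and of those with at least 10 CPM 58.0%. Separation in input in the same direction was seen in 56 of the higher genes (40.9%) and in 27 of the lower genes (12.8%). It was seen in 6.78% of all genes and in 8.09% of those with at least 10 CPM. Without IP mock replicate 2 the same-sign shares were 91.0% and 70.5%, and 43.6% and 18.8% were separated in input. Without mock replicate 2 and PE replicate 1 the same-sign shares were 70.8% and 59.5% (55.3% of all genes), and 43.4% and 29.0% were separated in input, against 22.1% of all genes. These genes were chosen by their IP values, so the larger IP medians follow in part from the choice, and the gap between higher and lower genes was not tested. The largest log2 fold changes of the set had large errors. The 2 highest were 3.80 (SE 1.19) and 3.67 (SE 1.40), for genes at 13.1, 0 and 6.27 and at 3.89, 0 and 2.13 CPM in the mock precipitates, with 0 in mock replicate 2 in both. In the PE precipitates these genes were at 100.1, 55.8 and 110.1 CPM and at 60.1, 4.43 and 9.84 CPM. The 2 lowest were -3.06 (SE 0.99) and -2.88 (SE 1.14), for genes at 24.2, 62.5 and 26.9 and at 23.1, 57.7 and 20.8 CPM in mock, with mock replicate 2 the highest in both. Their PE precipitates were at 8.51, 3.25 and 1.62 CPM and at 2.26, 0 and 11.3 CPM. None of these 4 passed (edgeR adjusted p = 0.725 or 0.760).

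Presence in precipitates of 1 treatment alone was limited to rare transcripts. Of the 10491 genes tested, 143 had 0 counts in all 3 mock precipitates. The highest mean any of them reached in the PE precipitates was 8.10 CPM. The reverse held for 36 genes, with at most 7.05 CPM in mock. Counts were present in every library of the other treatment for 54 and 3 of these genes. No gene with a mean of at least 10 CPM in the precipitates of 1 treatment was thus without a count in the other. IP mock replicate 2 alone had 0 counts for 27.2% of the genes tested, and for 80.3% of those under 2 CPM. The counts of 143 and 36 were not made without it, and whether their gap reflects PE was not tested.

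**Figure D3:**
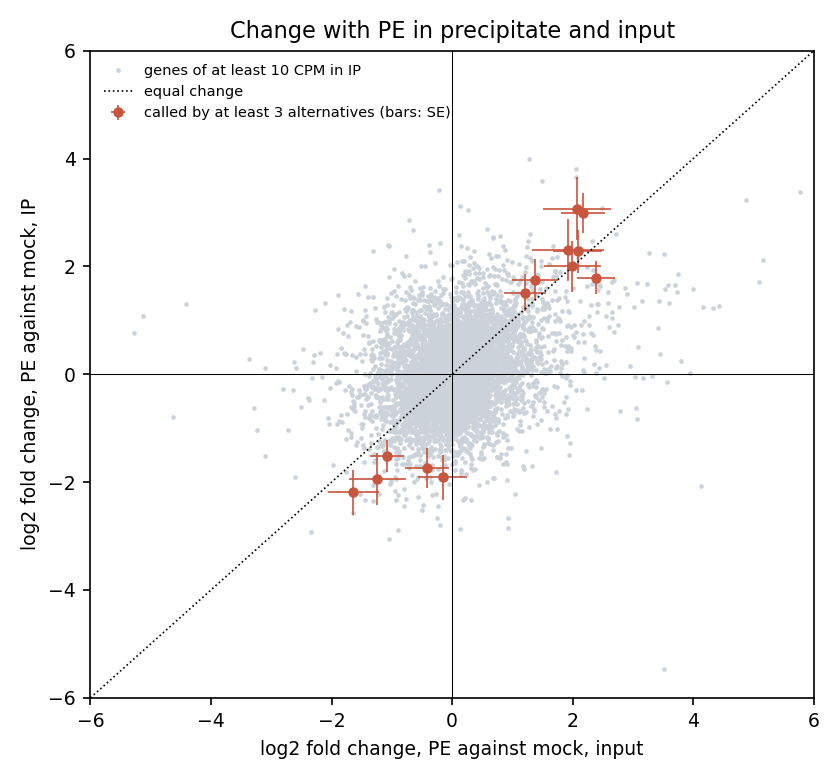
Log2 fold change of PE against mock in IP (vertical) against that in input (horizontal) for the 5985 genes of at least 10 CPM in the precipitates, 1 of which lies outside the axes. Red points with SE bars are the 13 genes called by at least 3 alternative analyses, all of them in the quadrants where both changes have the same sign, and the dotted line marks equal change.

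The test of the difference between the IP and the input change asks whether PE alters the level in the precipitate beyond the change in total RNA. Without a control antibody precipitate, it cannot separate recovery with Cpeb4 from unspecific recovery. By edgeR 0 genes passed as higher or lower (0%). An unadjusted p under 0.05 was reached by 271 genes (2.58%), and 2 lower genes passed by DESeq2's Wald test. The median SE of this difference was 1.61 on the log2 scale over all genes, and 0.90 over those of at least 10 CPM, so differences of a few-fold were not detectable for a typical gene. Opposite separation, with PE precipitates above and PE inputs below all mock libraries of their type, was seen in 14 genes (0.133% of those tested), and the converse in 16 (0.153%). Separation in the same direction in both was seen in 133 higher (1.27%) and 59 lower genes (0.562%). The 133 higher genes had median log2 fold changes of 1.58 in IP and 1.82 in input, and the 59 lower genes of -1.20 and -1.03. Deviations from the group means, compared between inputs and precipitates of the same number, had a Pearson r across genes of 0.23, 0.28 and 0.18 in mock replicates 1 to 3 and of 0.26, 0.0039 and 0.30 in PE. Mock input replicate 3 correlated better with mock IP replicate 1 (0.22) than with its own number. PE input replicate 2 likewise correlated better with PE IP replicate 3 (0.29) than with its own number. Where r is above 0, the IP and the input change of a gene may share part of their error.

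Level set how well the change in the precipitates could be measured. The median SE of the IP log2 fold change was 2.61 in the 1040 genes under 2 CPM, 1.86 in the 3466 genes from 2 to 10 CPM, 0.80 in the 3926 genes from 10 to 50 CPM, 0.43 in the 1594 genes from 50 to 200 CPM, 0.35 in the 377 genes from 200 to 1000 CPM and 0.30 in the 88 genes from 1000 CPM upward. Changes over 2-fold in size, whatever their p, were seen in 61.3% of the genes under 2 CPM and in 15.9% of those from 1000 CPM upward. IP mock replicate 2 had 0 counts for 80.3% of the genes under 2 CPM, 10.1% of those from 10 to 50 CPM and none of those from 200 CPM upward. Among the 88 most abundant genes, 24 (27.3%) had an unadjusted p under 0.05, 6 higher and 18 lower, against 5.54% of all genes tested. Under 2 CPM the split was the other way, 110 higher and 15 lower. Both splits moved in some settings and were kept in others. With library totals, 10 higher and 2 lower genes from 1000 CPM upward had such a p. Under 2 CPM that scaling gave 69 and 7. Without IP mock replicate 2 there were 7 and 8 from 1000 CPM upward, and 45 higher and 51 lower genes under 2 CPM. Without mock replicate 2 and PE replicate 1 there were 8 and 22 from 1000 CPM upward, and 73 and 19 under 2 CPM.

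The likeness of the IP and the input change followed the same order. Across genes, Pearson's r between both log2 fold changes was 0.05 under 2 CPM, 0.11 from 2 to 10, 0.25 from 10 to 50, 0.34 from 50 to 200, 0.55 from 200 to 1000 and 0.74 from 1000 CPM upward. Over all 10491 genes r was 0.12. Without IP mock replicate 2 the 6 values went from 0.05 to 0.85, and without mock replicate 2 and PE replicate 1 from 0.07 to 0.72, with 0.37 from 200 to 1000 CPM. Genes within these bins share libraries and are not independent replicates. Abundant transcripts were thus the ones whose change in the precipitate most resembled their change in total RNA, and they were also the ones measured with the smallest error.

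**Figure D4:**
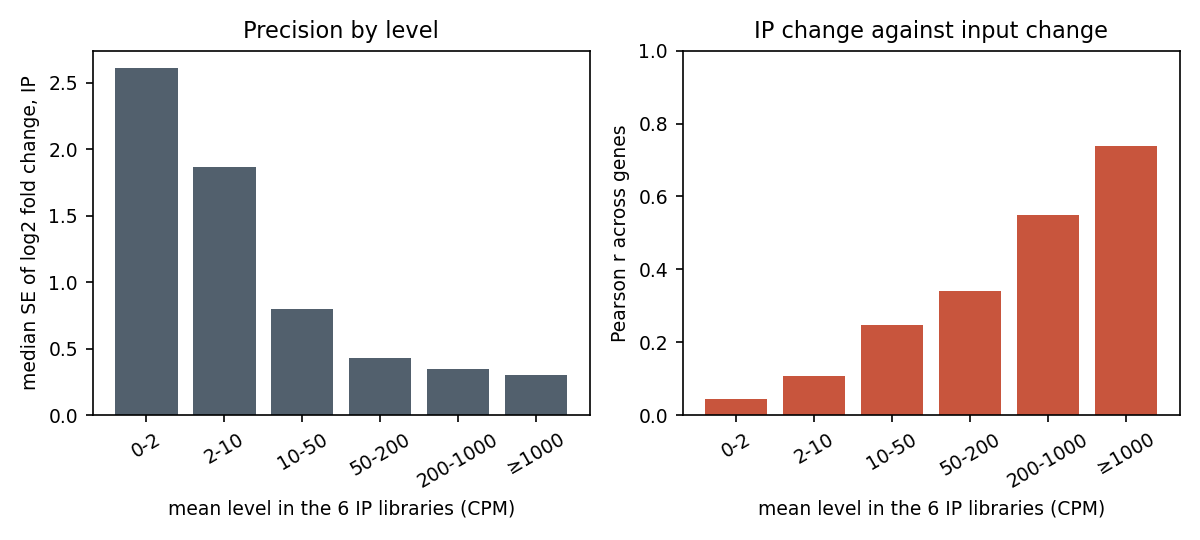
Median SE of the IP log2 fold change (left) and Pearson r across genes between the IP and the input log2 fold change (right), by the mean level in the 6 precipitates in CPM. From the lowest to the highest bin the SE goes from 2.61 to 0.30 and r from 0.05 to 0.74.

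Neither the share of the most abundant genes nor the number of genes with a count separated the treatments in the precipitates. The TMM factors did not overlap, at 1.43, 1.46 and 1.40 in mock and 1.58, 1.53 and 1.59 in PE precipitates, and this difference was not tested. The 10 genes most abundant over the precipitates held 18.7%, 7.81% and 17.8% of counts in mock and 11.4%, 16.9% and 13.9% in PE precipitates (means 14.7% ± 6.02 and 14.1% ± 2.77, SD, n = 3 each, two-sided exact permutation p = 0.8). In input the same genes held 45.1% ± 12.6 in mock and 37.3% ± 8.90 in PE (n = 3 each, exact permutation p = 0.4). This input difference of -7.76 percentage points was -2.85 without PE input replicate 1 and -14.96 without mock input replicate 2. At a common depth of 1423334 counts, the expected number of genes with a count was 10782, 7507 and 10119 in mock and 10116, 10394 and 11227 in PE precipitates (exact permutation p = 0.5). The groups overlapped, and mock replicate 2 was the lowest in both measures. Without it the difference in genes, PE minus mock, was 128 in place of 1109. With 3 libraries against 3 the exact permutation test cannot go below p = 0.1. After Benjamini-Hochberg adjustment over both measures the IP values were p = 0.8 each (exact permutation).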

How the data were processed

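The authors deposited 1 table of raw counts per gene for the 12 libraries, without normalization. Blank lines were skipped. Per the submitters' processing notes, cutadapt 2.5, STAR 2.7, featureCounts 1.6.4, DESeq2 and the build Rnor_6.0 were used, with options that the sources used here do not give. How antisense or overlapping genes were counted is thus unknown. Columns were matched to samples by type, treatment and replicate number. No 2 libraries of a group agreed within sampling noise (chi-square per degree of freedom at least 7.79).

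Tests used edgeR 4.0.16 in R 4.3.3 (TMM, filterByExpr, robust quasi-likelihood fit of 4 group means over the 12 libraries), adjusted by Benjamini-Hochberg, and were tested on simulated data. SE is the log2 fold change divided by the square root of F. Alternatives were DESeq2 size factors, library totals, no low-count filter, DESeq2 1.42.0 with its Wald test, voom with sample weights in limma 3.58.1, the 6 libraries of a comparison alone, a replicate block, leaving out each library, and leaving out mock replicate 2 and PE replicate 1, with the filter reapplied. Counts of separated genes, of the narrower set and by level under other scaling or fewer libraries were added after seeing the data.

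Groups, lists and tests were chosen with earlier results of these data known. The rule for named genes asked for the given identifiers ENSRNOG00000000875 and ENSRNOG00000017786, genes that passed, the largest changes with an unadjusted p under 0.05, no overlap and at least 10 CPM, and genes called by 3 or more alternatives. Since no symbol was available, the identifiers printed as lower are the 2 genes of the last kind with the smallest p, a choice made after their values were seen. The 41 gene lists and the share of mitochondrially encoded genes could not be computed without names.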

Additional observations from a re-analysis of the deposited data

How the results depend on the processing

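Counts of called genes depended strongly on the analysis. PE against mock in the precipitates had 1 higher and 0 lower genes as reported, of 10491 tested. No low-count filter gave 17 and 13 (15786 tested), and voom 3 and 1. The DESeq2 Wald test gave 28 and 13 (698 of 10491 genes without an adjusted p). The 6 precipitates alone gave 0 and 0 (10319 tested). Leaving out mock replicate 2 and PE replicate 1 gave 20 and 19 (10735 tested). DESeq2 size factors, library totals and each single library left out gave 1 and 0. For input (1 and 0 as reported), no filter and DESeq2 each gave 14 higher and 1 lower, voom 5 higher, the 6 inputs alone 0 higher, and leaving out those 4 libraries 8 higher. Leaving out single libraries gave 0 to 4 higher genes in input. The difference between both changes (0 and 0) had 1 lower gene without a filter and 2 with DESeq2. For these counts the cause was not tested. A replicate block gave 1 and 0 in the precipitates, 1 and 0 in input and 0 and 0 for the difference, and a block within treatment 0 and 0. Deviations from the group means in mock and PE precipitates of the same number had r = -0.22, 0.03 and 0.22, and not every library correlated best with its own number. The deviations within a group sum to 0, so these values cannot decide whether the numbers pair the libraries. With single libraries left out, the difference in the share of the 10 most abundant genes ranged from -4.12 to 1.31 percentage points in the precipitates and the difference in genes at a common depth in input from -65.98 to 1009. No gene list could be recomputed under other settings. Low levels limit detection, with a median SE of 2.61 under 2 CPM and 1.86 from 2 to 10 CPM.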
